A study of Mus musculus with 6 samples.

Results

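The genes described here are 9 interleukin-1 (IL-1) family ligands and receptors in bone marrow (BM) neutrophils: the ligands Il1a, Il1b and Il18, the antagonist Il1rn, and the receptors Il1r1, Il1r2, Il1rap, Il1rl1 and Il18rap. They were taken by name, with earlier results of these data known, and all 9 were among the 38887 gene identifiers counted. Of the 9 genes, 8 had enough counts to be among the 12259 genes tested, and Il1r1 did not. RNA was sequenced from Ly6G+ cells collected with magnetic beads from BM, labelled as highly pure, in 3 groups of 2 libraries: naive mice without tumor, mice 1 week and mice 3 weeks after tumor cell transfer. The tumor cells were LL2, a luciferase-expressing Lewis lung carcinoma line given intravenously to seed the lung, and the labels name no genetic alteration or drug in any of the 3 groups. The labels name a mouse for each library and number the libraries of a group as replicates, without stating that these are separate mice. A figure legend of the study gives 3 samples per group, while the counts hold 2 per group. The labels are the source used here. They give no age, sex or strain for these libraries, and the study's methods name C57BL/6 mice without tying them to these libraries. The p-values rest on the spread within groups of 2 libraries, over all 3 groups, drawn for each gene towards that of other genes. The third group thus enters each comparison, and the p-values speak for these libraries alone. Comparisons were made to ask how BM neutrophils at an early and a late stage of the same tumor differ from naive neutrophils and from each other.

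IL-1 alpha, IL-1 beta and IL-18 are cytokines of inflammation. IL-1 alpha and IL-1 beta signal when they bind IL-1 receptor type 1 (Il1r1), which then pairs with the accessory protein encoded by Il1rap and recruits MyD88 and IRAK kinases. Brakes are built into the family: Il1rn encodes the receptor antagonist, which occupies the type 1 receptor without signalling, and Il1r2 encodes a decoy receptor that binds IL-1 but lacks the signalling domain. Il1rl1 encodes ST2, the receptor for IL-33, which also uses the Il1rap protein. Il18rap encodes the accessory chain of the IL-18 receptor. Neutrophils are a known source of IL-1 beta and of the decoy receptor.

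Library totals ran from 11994158 to 14127919 counts. A level is given in CPM, counts over a common library total, scaled between libraries by the TMM method of edgeR, and 3 counts, taken as the smallest detectable number, corresponded to between 0.200 and 0.245 CPM. Such limits cover counting error only, since reads copied by PCR are not independent molecules. A change was called where the edgeR quasi-likelihood test gave an adjusted p under 0.05, with adjustment over all 12259 genes. The neutrophil markers were present in every library. The summed level of 12 of these genes was 284806 to 348706 CPM, most of it S100a8 and S100a9. Ly6g, the gene of the marker used for selection, was itself near the limit at 0.491 to 2.13 CPM.

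Il1b, Il1rn, Il1r2 and Il1rap carry most of what follows, and the stretch of 250 bases before their start is shown for them as the reference RefSeq gives it in GRCm38.p6, read 5′ to 3′ on the strand of the gene. Il1b lies at chr2:129364570-129371139 on the minus strand, Il1rn at chr2:24336853-24351494 on the plus strand, Il1r2 at chr1:40074079-40125231 on the plus strand and Il1rap at chr16:26581704-26730117 on the plus strand. The windows are chr2:129371140-129371389 for Il1b, chr2:24336610-24336859 for the first of 3 listed starts of Il1rn, chr1:40085843-40086092 for Il1r2 and chr16:26581455-26581704 for Il1rap. The Il1r2 window lies inside the longer gene model used for the counts. Capitals mark matches on either strand to TATAAA, known from core promoters, to the hypoxia response core ACGTG, to the C/EBP motif TTGCNNAA or to the PU.1 motif GGAAGT, and an NF-kappaB consensus was searched as well.
Il1b: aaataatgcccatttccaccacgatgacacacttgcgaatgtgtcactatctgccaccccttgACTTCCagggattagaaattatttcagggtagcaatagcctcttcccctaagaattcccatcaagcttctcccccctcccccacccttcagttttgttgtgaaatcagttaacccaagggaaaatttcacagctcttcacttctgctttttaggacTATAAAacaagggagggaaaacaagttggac
Il1rn: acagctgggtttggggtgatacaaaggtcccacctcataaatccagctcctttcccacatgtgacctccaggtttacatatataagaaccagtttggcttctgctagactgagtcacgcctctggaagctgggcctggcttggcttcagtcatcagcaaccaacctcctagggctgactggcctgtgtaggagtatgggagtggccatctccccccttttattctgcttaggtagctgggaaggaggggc
Il1r2: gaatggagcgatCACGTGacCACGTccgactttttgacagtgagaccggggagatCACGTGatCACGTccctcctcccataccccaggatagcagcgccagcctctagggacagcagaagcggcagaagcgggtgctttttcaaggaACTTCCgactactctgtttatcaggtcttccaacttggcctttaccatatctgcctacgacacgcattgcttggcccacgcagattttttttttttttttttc
Il1rap: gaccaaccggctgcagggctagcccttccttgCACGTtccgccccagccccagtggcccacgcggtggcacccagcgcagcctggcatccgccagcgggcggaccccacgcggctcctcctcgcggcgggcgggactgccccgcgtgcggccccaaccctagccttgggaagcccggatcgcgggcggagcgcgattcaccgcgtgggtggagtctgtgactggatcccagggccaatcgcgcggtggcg

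The windows differed in composition, from 44.4% GC in Il1b to 74.4% in Il1rap, with 53.2% in Il1rn and 51.2% in Il1r2, beside a median of 52.4% over 32851 windows. The Il1b window held TATAAA 31 bases before the start, as did that of Il1a at 32 bases. The Il18 window held it on the opposite strand at 175 bases. These letters were thus on either strand in 3 of the 13 windows of the 9 genes and in 12.4% of all windows. In the Il1r2 window ACGTG occurred 6 times over both strands, of which some overlap because CACGTG reads the same on each strand, and the Il1rap window held it once, 218 bases before the start. ACGTG was found in 3 of the 13 windows, among them that of Il1r1, and in 16.6% of all windows. GGAAGT, on the opposite strand in Il1b and Il1r2, was found in 5 of the 13 windows of the 9 genes and in 19.7% of all windows. The C/EBP letters were present in 2 of the 13 windows and in 9.56% of all. The Il1rn window held none of the motifs. The NF-kappaB consensus was in 0 of the 13 windows and in 5% of all windows, which says only that these letters are not in these stretches.

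In naive neutrophils the genes of the family covered a wide range of levels. Levels of different genes were compared per kb of exon. Il1b stood at 397 CPM per kb, rank 111 of 12101 tested genes with a known length, and Il1r2 at 284 CPM per kb, rank 160. Next came Il1rn with 33.3 CPM per kb, Il18 with 26.6 CPM per kb and Il18rap with 20.0 CPM per kb. Il1rap (0.404 CPM per kb), Il1rl1 (0.384 CPM per kb) and Il1a (0.368 CPM per kb) were far down the order, at ranks 10035 to 10210, and these neighbours did not differ beyond the spread of their 2 libraries. Naive BM neutrophils thus held much RNA of a ligand and of the decoy receptor and little of the accessory chain. Il1r1, the signalling receptor of the IL-1 ligands, was close to absent. Its counts were 3 and 0 in naive mice, 5 and 2 in one-week LL2 mice and 0 and 0 in three-week LL2 mice, so that a change in it was not detectable at this depth.

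**Figure D1:**
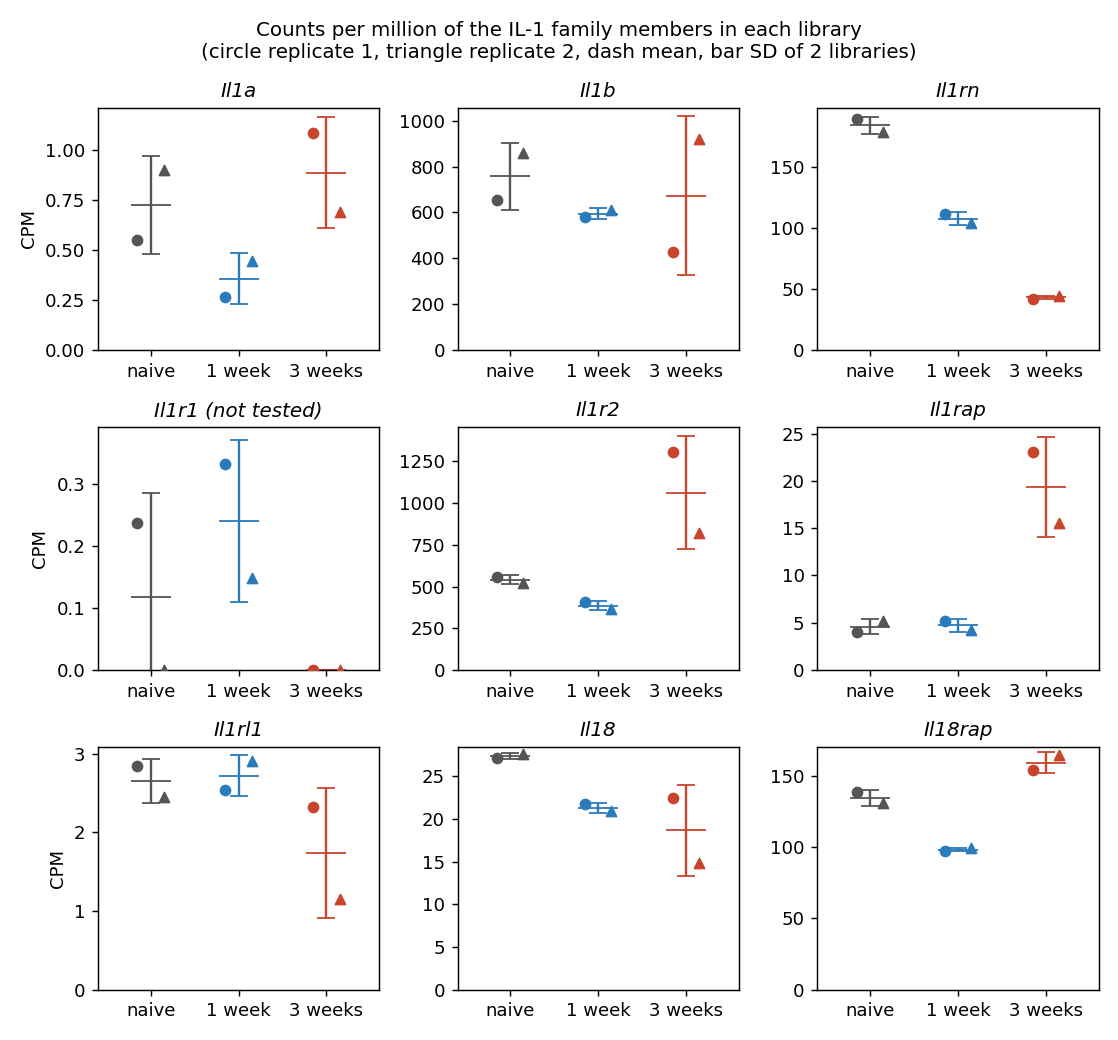
Level of each of the 9 genes in CPM (vertical axes, each from 0) in the 2 libraries of naive, one-week and three-week LL2 mice, with the mean as a dash and the SD of the 2 libraries as a bar. Il1rn steps down from 184 to 108 and 43.4 CPM, Il1r2 and Il1rap are highest at 3 weeks, and the 2 three-week libraries lie apart for Il1b.

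At 1 week 2 of the 8 tested genes (Il1rn and Il18rap) were called lower than in naive mice and 0 higher (25%), beside 7.99% of all tested genes called in either direction, 4.23% higher and 3.76% lower. At 3 weeks 2 were higher (Il1r2 and Il1rap) and 2 lower (Il1rn and Il18), or 50%, beside 21.4% of all tested genes, 12% higher and 9.42% lower. In the direct comparison of the stages 3 were higher at 3 weeks than at 1 week (Il1r2, Il1rap and Il18rap) and 1 was lower (Il1rn), beside 22.5% of all tested genes, 12.9% higher and 9.57% lower. At an unadjusted p under 0.05, 3, 5 and 4 of the 8 genes passed in the 3 comparisons, beside 23.2%, 33.8% and 35.1% of all tested genes, and no gene of the 8 was higher at 1 week by that measure or with DESeq2. In each comparison the values of the compared groups were apart for 6 of the 8 genes, which was also so for 53.2%, 59.6% and 63.9% of all tested genes. The median log2 fold change of the 8 genes was -0.41 at 1 week, 0.04 at 3 weeks and 0.44 between the stages, and that of all tested genes 0.01, 0.03 and -0.02. The comparisons of both stages with naive mice share the naive libraries, and only the direct comparison tests the stages against each other.

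**Figure D2:**
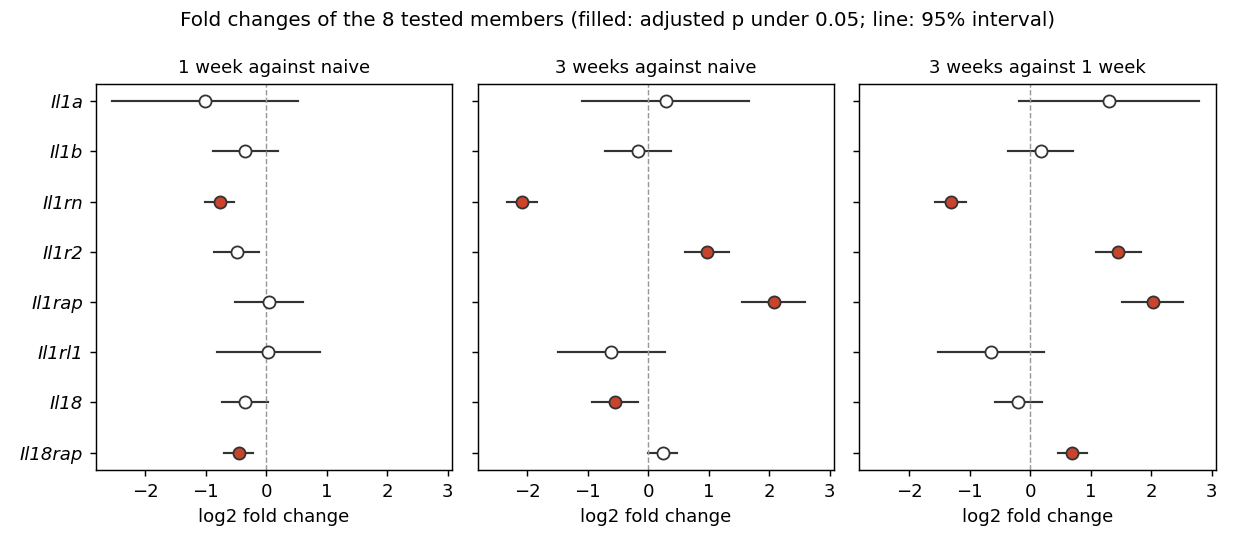
Log2 fold change of the 8 tested genes (horizontal axis) with its 95% interval in the 3 comparisons, filled where the adjusted p was under 0.05. The intervals are not adjusted for the number of genes, so that Il1r2 at 1 week lies off 0 and is still not called. Il1rn is to the left of 0 in all 3 panels.

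Of the ligands, Il1b (ENSMUSG00000027398) was abundant in every group and passed the test in no comparison. Its level was 655 and 859 CPM in naive mice, 579 and 611 CPM in one-week LL2 mice and 428 and 920 CPM in three-week LL2 mice. The lowest and the highest of the 6 values were thus both from mice with 3-week tumors. These 2 libraries differed 2.15-fold, a larger gap than for 95.5% of tested genes. The log2 fold change was -0.35 (95% interval -0.89 to 0.19, adjusted p = 0.448) at 1 week, -0.17 (-0.71 to 0.37, adjusted p = 0.689) at 3 weeks and 0.18 (-0.36 to 0.72, adjusted p = 0.654) between the stages. A 3-week change of Il1b rested on which library was kept. Without the second three-week library it was -0.82 (adjusted p = 0.00314), and without the first it was 0.29 and not called. Against one-week mice the value was 0.64 (adjusted p = 0.0107) without the first three-week library and -0.47, not called, without the second. Markers of monocytes and macrophages, which also make IL-1 beta, were summed over 10 genes. The sum lay between 929 and 1063 CPM in naive, 1039 and 1114 CPM in one-week and 971 and 1060 CPM in three-week mice. Within the three-week pair the library with less Il1b had the higher sum. Most of each sum was Ly6c2, which was itself lower in that library (643 against 702 CPM). Of the 10 markers, 1 was called higher (F13a1) and 1 lower (Cx3cr1) at 3 weeks (20%, beside 21.4% of all tested genes). The part of monocytes and macrophages in the Il1b values was not tested. In bulk RNA fewer cells of a type and less RNA per cell cannot be told apart. Il1bos, on the other strand, shares 25 exon bases with Il1b and had 0 to 5 counts.

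Il1a (ENSMUSG00000027399, chr2:129299610-129309972, minus strand) encodes IL-1 alpha, which is active without cleavage. It had 7 and 11 counts in naive, 4 and 6 in one-week and 14 and 9 in three-week LL2 mice, or 0.267 to 1.08 CPM. Its log2 fold changes of -1.02 (adjusted p = 0.432), 0.29 (adjusted p = 0.798) and 1.31 (adjusted p = 0.199) passed no test, with intervals as wide as -2.55 to 0.52. Gm14023, on the other strand, shares 222 exon bases with Il1a and had 5 to 18 counts, and whether the counting used strand is not stated in the sources used here.

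Il18 (ENSMUSG00000039217, chr9:50554827-50581840, plus strand) fell at 3 weeks by a small amount. Its level was 27.1 and 27.6 CPM in naive mice, 21.7 and 20.9 CPM in one-week and 22.5 and 14.9 CPM in three-week LL2 mice. Every library from a tumor-bearing (TB) mouse was below both naive libraries. The log2 fold change was -0.36 (SE 0.176, adjusted p = 0.244) at 1 week and -0.55 (SE 0.179, adjusted p = 0.0431) at 3 weeks, and between the stages it was -0.19 (adjusted p = 0.481). The call at 3 weeks was close to the threshold. It was lost without any one of 4 libraries (naive replicate 1 or 2, one-week replicate 1 or three-week replicate 2, adjusted p from 0.0503 to 0.351), with DESeq2 (adjusted p = 0.0650) and with the 2 groups alone (adjusted p = 0.0511).

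Il1rn (ENSMUSG00000026981), the receptor antagonist, fell stepwise and had the smallest adjusted p of the 8 genes in each comparison. Its level was 189 and 179 CPM in naive mice, 112 and 104 CPM in one-week LL2 mice and 42.5 and 44.3 CPM in three-week LL2 mice. The groups did not overlap, and the SD of the 2 libraries was at most 7.17 CPM in any group. Il1rn was 1.71-fold lower at 1 week (log2 fold change -0.77, SE 0.112, adjusted p = 0.00182) and 4.25-fold lower at 3 weeks (-2.09, SE 0.118, adjusted p = 2.72e-07). From 1 to 3 weeks it fell a further 2.49-fold (-1.31, SE 0.116, adjusted p = 6.83e-06). The call held in all 13 alternative fits of each comparison, with a log2 fold change between -2.24 and -2.05 at 3 weeks.

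The decoy receptor Il1r2 (ENSMUSG00000026073) rose at 3 weeks. Its level was 559 and 524 CPM in naive mice, 405 and 366 CPM in one-week LL2 mice and 1302 and 823 CPM in three-week LL2 mice. Both one-week libraries were below and both three-week libraries above the naive ones, and the three-week libraries differed 1.58-fold from each other. The log2 fold change was -0.49 (SE 0.170, adjusted p = 0.0967) at 1 week, which was not called, 0.97 (SE 0.171, adjusted p = 0.00133) at 3 weeks and 1.46 (SE 0.173, adjusted p = 6.85e-05) between the stages. The value at 1 week was called in 4 of 13 alternative fits. These were the fit with no filter on low counts (adjusted p = 0.00178), the 2 groups alone (adjusted p = 0.0158) and the fits without the first (adjusted p = 0.0141) or the second three-week library (adjusted p = 0.0143). Gm16894, an antisense gene within the Il1r2 locus, shares no exon bases with it and had 19 to 46 counts.

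Il1rap (ENSMUSG00000022514), the accessory chain shared by the receptors for IL-1 and IL-33, rose from a low level. It had 51 and 63 counts in naive, 78 and 57 in one-week and 298 and 203 in three-week LL2 mice. In CPM these were 4.03 and 5.15, then 5.20 and 4.25, then 23.1 and 15.6. Naive and one-week libraries overlapped, and both three-week libraries were above all others. The increase at 3 weeks was 4.21-fold over naive (log2 fold change 2.07, SE 0.240, adjusted p = 6.28e-05) and 4.08-fold over one-week mice (2.03, SE 0.235, adjusted p = 5.89e-05), while at 1 week the value was 0.05 (95% interval -0.52 to 0.61, adjusted p = 0.947). Both calls held in all 13 alternative fits. Even after this rise Il1rap RNA was far below that of Il1r2. Gm20319 shares 552 exon bases with Il1rap on the other strand and had 0 counts in all libraries.

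The 3-week increases of Il1r2 and Il1rap went with other differences between the libraries. The summed level of 5 early neutrophil granule genes (Elane, Mpo, Prtn3, Ctsg and Ms4a3), which are made by promyelocytes, was 47.2 to 56.5 CPM in naive, 55.4 to 93.8 CPM in one-week and 256 to 354 CPM in three-week mice, and 5 of 5 were called higher at 3 weeks. Within the three-week pair the library with more of these transcripts (354 CPM) had less Il1r2 and less Il1rap. The summed level of 8 B cell markers fell from 44.0 to 52.9 CPM in naive to 12.1 to 13.6 CPM in three-week mice, with 8 of 8 called lower. Erythroid markers summed to 1316 and 561 CPM in the first and the second three-week library, 1176 to 1312 CPM in naive and 1282 to 1485 CPM in one-week mice. Of the 12 neutrophil markers, 2 were called higher (Cxcr2 and Retnlg) and 3 lower (Camp, Ngp and Ltf) at 3 weeks. That was 41.7%, beside 21.4% of all tested genes. Between the stages 5 were higher and 3 lower (66.7%, beside 22.5% of all tested genes). The part of all these differences in the values of the IL-1 genes was not tested.

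Il1rl1 (ENSMUSG00000026069, chr1:40429570-40465415, plus strand), which encodes ST2, had 36 and 30 counts in naive, 38 and 39 in one-week and 30 and 15 in three-week LL2 mice. Its level was 2.85 and 2.45 CPM, then 2.53 and 2.90 CPM, then 2.32 and 1.15 CPM, so that both three-week libraries lay below the naive range. The log2 fold changes of 0.04 (adjusted p = 0.974), -0.61 (95% interval -1.50 to 0.28, adjusted p = 0.332) and -0.64 (adjusted p = 0.284) passed no test. Mast cells and basophils carry ST2. The summed level of 10 of their markers was 1254 to 1472 CPM in naive, 918 to 1038 CPM in one-week and 860 to 914 CPM in three-week mice. Most of it was Hdc, at 1446 and 1228, then 850 and 966, then 853 and 901 CPM, so the sum mainly follows that gene. Prss34 rose at 1 week, from 15.2 and 14.3 CPM in naive to 39.8 and 44.4 CPM. In three-week mice it stood at 2.09 and 5.61 CPM. Of 6 tested, 3 were called higher (Mcpt8, Prss34 and Cpa3) and 1 lower (Hdc) at 1 week (66.7%, beside 7.99% of all tested genes). At 3 weeks 0 were higher and 4 lower (66.7%, beside 21.4% of all tested genes). Tpsb2 was at 0 counts in all groups, Cma1 in naive and three-week mice and Ms4a2 in naive mice. The part of such cells in the Il1rl1 values was not tested.

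Il18rap (ENSMUSG00000026068, chr1:40515362-40551705, plus strand) fell at 1 week and was higher at 3 weeks than at 1 week. Its level was 139 and 131 CPM in naive mice, 97.7 and 99.1 CPM in one-week and 154 and 165 CPM in three-week LL2 mice, with no overlap between any 2 groups. The log2 fold change was -0.45 (SE 0.111, adjusted p = 0.0260) at 1 week, 0.24 (SE 0.111, adjusted p = 0.141) at 3 weeks and 0.70 (SE 0.111, adjusted p = 0.000632) between the stages. The change between stages was called in all 13 alternative fits. The call at 1 week was not, since it was lost without any one of the 4 libraries compared (adjusted p from 0.0530 to 0.160) and with scaling by library size alone (adjusted p = 0.0606).

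Receptor genes of the family lie side by side on chromosome 1, in the order Il1r2, Il1r1, Il1rl2, Il1rl1, Il18r1 and Il18rap over 477.627 kb, of which Il1rl2 and Il18r1 are not among the 9 genes. No test of a difference between neighbours was run. At 1 week Il1r2, Il18r1 and Il18rap were lower in both libraries than in either naive one. The values of the 2 groups were apart, in either direction, for 53.2% of all tested genes. All 3 were called higher at 3 weeks than at 1 week (Il18r1 by edgeR only), beside 12.9% of all tested genes. Il1rl1, which lies between them, overlapped naive at 1 week (log2 fold change 0.04). Between the stages it went the other way (-0.64, not called). From naive to three-week mice Il1r2 went from 293 and 274 to 683 and 431 CPM per kb of exon, and Il18rap from 20.5 and 19.4 to 22.8 and 24.4 CPM per kb. Il1r1 reached at most 5 counts and Il1rl2, which encodes the IL-36 receptor, had 0 counts in all libraries. Values of Il18r1, the ligand-binding chain of the IL-18 receptor, are given with the other family genes.

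**Figure D3:**
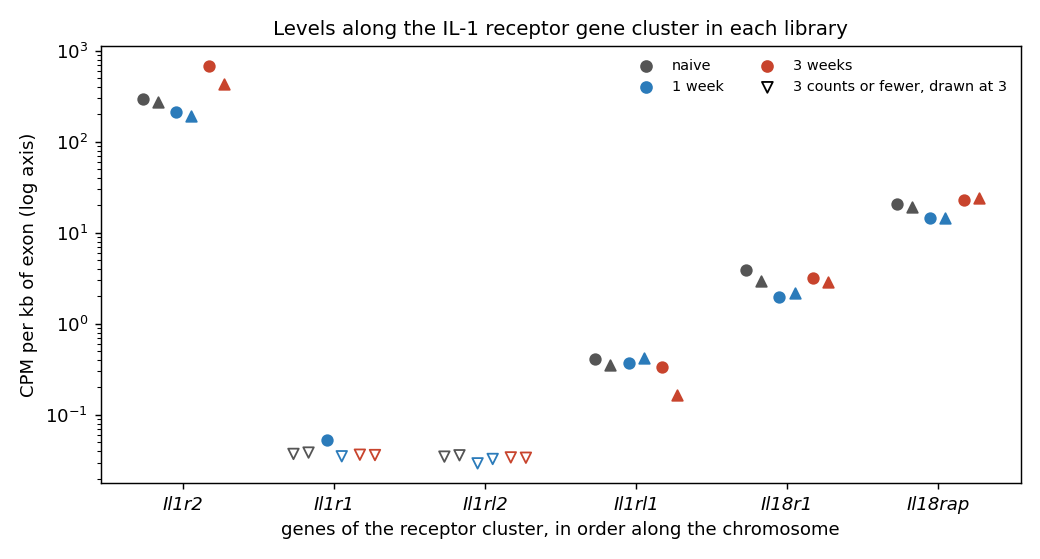
Level of the 6 genes of the receptor cluster in CPM per kb of exon (log axis), ordered along the chromosome, in each library (circles replicate 1, triangles replicate 2), with open triangles for 3 counts or fewer, drawn at 3. Il1r2 at the left end is highest and Il1r1 and Il1rl2 are at the limit, with Il18r1 and Il18rap rising again at the right end.

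The balance of antagonist, decoy and ligand was read within each library, where scaling between libraries plays no part. These ratios are given without a test. Only that of Il1rn to Il1b was planned beforehand, and the others below were not. A planned ratio of Il1r2 to Il1r1 is not given, and Il1r1 had at most 5 counts in a library. The number of Il1rn counts per Il1b count was 0.289 and 0.209 in naive mice, 0.192 and 0.171 in one-week mice and 0.0993 and 0.0482 in three-week mice, so that the groups did not overlap. The log2 ratio of Il1r2 to Il1b counts was -0.23 and -0.71 in naive mice, -0.52 and -0.74 in one-week mice, and 1.61 and -0.16 in three-week mice. The antagonist was thus lowest relative to Il1b in the three-week pair, whereas the decoy had more counts than Il1b only in the first three-week library. The log2 ratio of Il1r2 to Il1rap was 7.12 and 6.67 in naive, 6.28 and 6.43 in one-week and 5.82 and 5.72 in three-week mice. For Il18rap to Il18 the log2 ratio was 2.35 and 2.24 in naive, 2.17 and 2.24 in one-week and 2.78 and 3.47 in three-week mice, the highest in both three-week libraries.

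**Figure D4:**
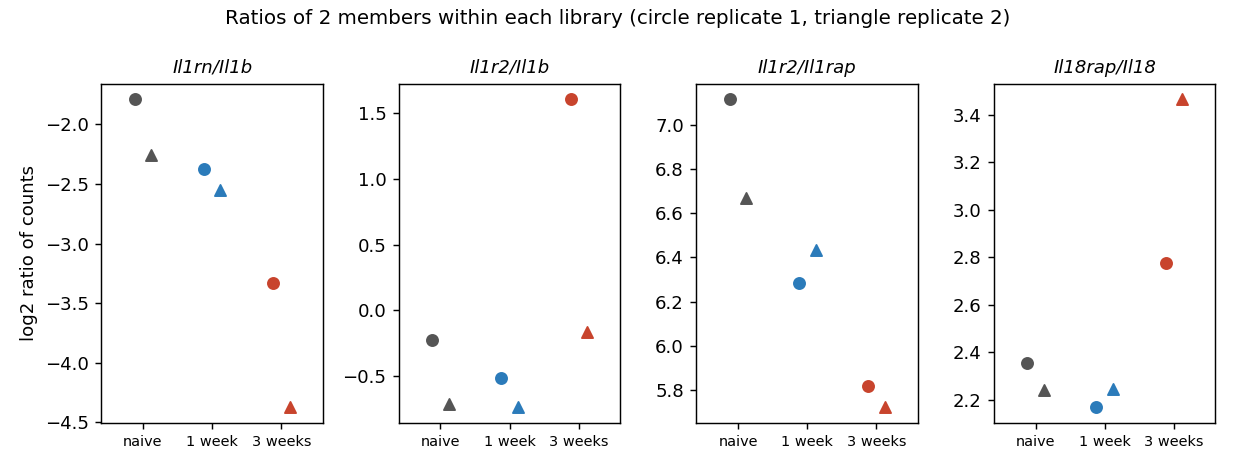
Log2 ratio of the counts of 2 genes within each library (vertical axes, which do not start at 0) in naive, one-week and three-week LL2 mice, for Il1rn to Il1b, Il1r2 to Il1b, Il1r2 to Il1rap and Il18rap to Il18. The Il1rn to Il1b ratio is lowest in both three-week libraries, at -3.33 and -4.37.

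Of 12 further genes of the family, 4 were tested. At 1 week 1 was lower (25%, beside 7.99% of all tested genes), at 3 weeks 1 was higher (25%, beside 21.4%) and between the stages 3 were higher (75%, beside 22.5%). Il36g, which encodes the ligand IL-36 gamma and is named Il1f9 in the annotation, was near Il1b in level at 359 CPM per kb in naive mice. Its level was 559 and 624 CPM in naive, 424 and 478 CPM in one-week and 610 and 620 CPM in three-week mice, and it was called between the stages (log2 fold change 0.45, adjusted p = 0.0131) but not at 1 week (-0.39, adjusted p = 0.0535, and 0.00611 with DESeq2) or 3 weeks (0.06, adjusted p = 0.775). Il18r1 stood at 19.0 and 14.3 CPM, then 9.60 and 10.6 CPM, then 15.5 and 14.0 CPM. It fell at 1 week (-0.72, adjusted p = 0.0296) and was higher at 3 than at 1 week (0.55, adjusted p = 0.0481, and 0.133 with DESeq2), with -0.18 (adjusted p = 0.540) at 3 weeks against naive. Il18bp, a secreted inhibitor of IL-18, rose at 3 weeks from 18.7 and 15.5 to 24.9 and 26.0 CPM (0.57, adjusted p = 0.0169, and 0.0553 with DESeq2). It was also higher than at 1 week (0.60, adjusted p = 0.0117). Sigirr, an inhibitory receptor of the family, had 5 to 11 counts and passed no test. The ligand of ST2, Il33, had 0 or 1 count in every library. Il36a, Il36b, Il36rn, Il1f10, Il1rl2, Il1rapl1 and Il1rapl2 had between 0 and 7 counts and were not tested.

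Of 18 tested genes that carry the signal from the IL-1 receptor, 2 were lower and 0 higher at 1 week (11.1%, beside 7.99% of all tested genes), and 6 had an unadjusted p under 0.05, all of them lower, beside 23.2% of all tested genes. The 2 were Peli1, a ubiquitin ligase of the receptor complex (log2 fold change -0.56, adjusted p = 0.0196), and the kinase gene Map3k7, which encodes TAK1 (-0.56, adjusted p = 0.0210). Mapkapk2 had -0.37 (adjusted p = 0.0894, and 0.0442 with DESeq2). At 3 weeks 2 were higher and 2 lower (22.2%), close to the 21.4% of all tested genes. Myd88, the adaptor of the receptor, rose from 99.8 and 111 CPM in naive to 215 and 216 CPM (1.03, adjusted p = 4.23e-05) and Chuk, an IkappaB kinase gene, rose by 0.59 (adjusted p = 0.0246, and 0.0502 with DESeq2). Irak2 fell from 38.6 and 28.8 to 18.0 and 22.3 CPM (-0.74, adjusted p = 0.00894) and Peli1 was also lower (-0.51, adjusted p = 0.0131). Between the stages 6 were higher and 0 lower (33.3%, beside 22.5% of all tested genes), led by Myd88 (1.28, adjusted p = 7.39e-06), Tab2 (0.62, adjusted p = 0.00290) and Irak4 (0.63, adjusted p = 0.00379). The median of the list was -0.07 at 1 week, 0.21 at 3 weeks and 0.18 between the stages, beside 0.01, 0.03 and -0.02 over all tested genes.

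Among 14 tested genes for the processing and release of IL-1, 0 were called in either direction at 1 week, by edgeR or by DESeq2, beside 7.99% of all tested genes, and 4 had an unadjusted p under 0.05, beside 23.2%. Then the smallest adjusted p-values were those of Elane (1.06, adjusted p = 0.125), Aim2 (-0.51, adjusted p = 0.140) and the pore-forming Gsdmd (0.41, adjusted p = 0.140). At 3 weeks 6 were higher and 0 lower (42.9%, beside 21.4% of all tested genes). The serine protease genes Prtn3 (3.23, adjusted p = 3.52e-06), Ctsg (2.91, adjusted p = 3.58e-05) and Elane (2.44, adjusted p = 0.000558), whose proteins can cut IL-1 family precursors, are also genes of the early granule list given above. The other 3 were Pycard, the inflammasome adaptor, which rose from 28.0 and 35.9 to 73.3 and 60.6 CPM (1.07, adjusted p = 0.000272), Casp4 (1.17, adjusted p = 0.00148) and Capn1 (0.45, adjusted p = 0.0176). Casp1, the protease that matures IL-1 beta, and the sensor Nlrp3 were not called, with 0.17 (adjusted p = 0.507) and -0.33 (adjusted p = 0.183). Between the stages 6 were higher, with Prtn3 (2.55, adjusted p = 1.68e-05), Ctsg (2.42, adjusted p = 8.36e-05) and Pycard (0.86, adjusted p = 0.00108) first, and 1 was lower, S100a10 (-1.57, adjusted p = 0.00714), or 50% beside 22.5% of all tested genes. The list had a median of 0.36, 0.45 and 0.19 in the 3 comparisons, beside 0.01, 0.03 and -0.02 over all tested genes.

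Of 16 tested genes that IL-1 is known to induce in many cells, 1 was lower and 0 higher at 1 week (6.25%, beside 7.99% of all tested genes). It was Nfkbia, the inhibitor of NF-kappaB (-0.69, adjusted p = 0.0262, and 0.0914 with DESeq2). Bcl3 (-0.68, adjusted p = 0.0538, and 0.0316 with DESeq2) and Tnfaip3 (0.75, adjusted p = 0.126) were not called. At 3 weeks 6 were higher and 2 lower (50%, beside 21.4% of all tested genes). Socs3, a suppressor of cytokine signalling, rose from 23.6 and 35.5 to 155 and 169 CPM (2.46, adjusted p = 1.12e-06). Saa3, an acute phase gene, had 0 and 0 counts in naive and 52 and 57 in three-week mice, and was at least 17.4-fold higher (adjusted p = 0.000103) against a limit of 3 counts in each naive library. The chemokine gene Cxcl2 rose from 954 and 664 to 3040 and 1886 CPM (1.61, adjusted p = 0.000189). The chemokine genes Ccl3 (-1.27, adjusted p = 0.00183) and Ccl4 (-0.99, adjusted p = 0.000802) fell. Between the stages 7 were higher and 3 lower (62.5%, beside 22.5%), led by Socs3 (2.84, adjusted p = 3.37e-07), Bcl3 (1.80, adjusted p = 3.49e-05) and Cxcl2 (1.96, adjusted p = 3.72e-05). The medians were 0.04, 0.30 and 0.30, beside 0.01, 0.03 and -0.02 over all tested genes, and those of the last 2 comparisons were the same with Saa3 at its bound. Many of these genes respond to other cytokines too.

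**Figure D5:**
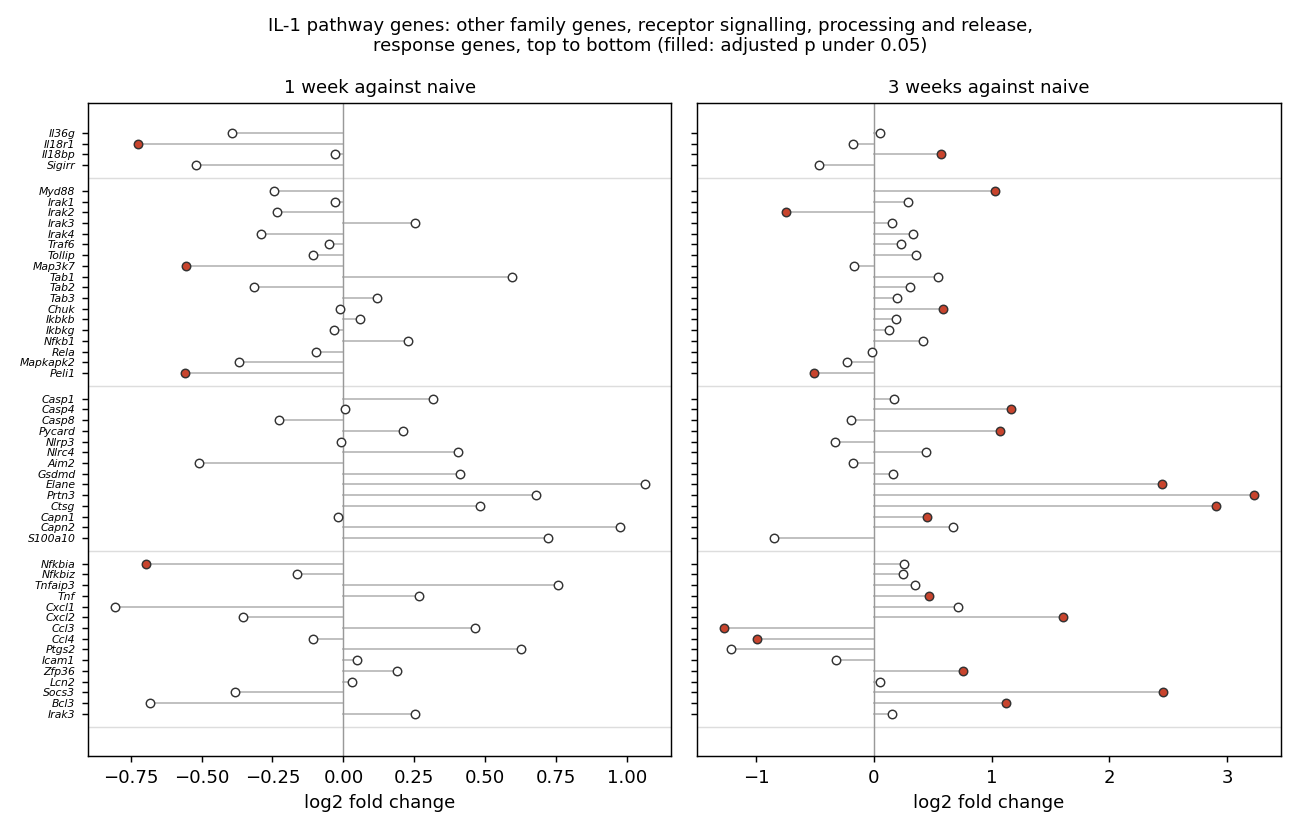
Log2 fold change (horizontal axes, which differ in range) of the tested pathway genes in one-week and three-week LL2 mice against naive mice, filled where the adjusted p was under 0.05, with the 4 lists separated by lines and Irak3 in 2 of them. Saa3 is left out because its naive libraries had 0 counts. At 1 week 4 genes are filled, and at 3 weeks Prtn3, Ctsg, Elane and Socs3 lie farthest to the right.

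The genes whose pattern over the 6 libraries was nearest to each member were found by the root mean square distance of log2 CPM after centring each gene. Nearest to Il1rn were Lhx1 (distance 0.0983), Akap11 (0.152) and Ptger4 (0.183). Ptger4, a prostaglandin E2 receptor gene, went from 22.7 and 24.8 CPM in naive to 17.3 and 18.9 CPM and then to 6.35 and 6.15 CPM. Nearest to Il1r2 were Rnf8 (0.109), Pnpla1 (0.119) and P2ry2 (0.137). P2ry2, a receptor gene for extracellular ATP, stood at 6.64 and 7.03 CPM in naive, 4.60 and 4.84 CPM in one-week and 15.3 and 12.4 CPM in three-week mice. For Il1rap they were Atp13a2 (0.155), Lat2 (0.160) and Ctnnbip1 (0.169). Il1b was nearest to Cracr2b (0.101), Rny1 (0.115) and Mapkbp1 (0.131). That these were higher in the second than in the first three-week library follows from choosing them by pattern. Cracr2b (0.852 and 1.84 CPM in three-week mice) and Rny1 (0.387 and 1.23 CPM) were at low levels. Il18 was nearest to Rabl6 (0.0588), Rassf4 (0.0598) and Paox (0.0625). Il18rap had the smallest distances, with Ahsa1 (0.0226), Crnkl1 (0.0438) and Golga4 (0.0461). For Il1rl1 they were Ece1 (0.0860), the hemoglobin gene Hba-a2 (0.0918) and Nr1h3 (0.105), and for Il1a 1810022K09Rik (0.139), Gm26563 (0.170) and Fbxw9 (0.172), and both members had low counts.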

How the data were processed

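RNA of BM Ly6G+ cells was measured in 6 libraries, 2 of each group (naive, 1 week, 3 weeks). The deposited values are expected counts, rounded by the authors to whole numbers and not scaled between libraries. Per the submitters' processing notes they used Bowtie2, RSEM 1.2.31 and mm10, and DESeq2 for their own tests. Totals ran from 11994158 to 14127919. Identifiers were matched to GENCODE annotation of GRCm38, the assembly that mm10 names, and 37570 of 38887 had a symbol. Lengths are those of merged exons. Promoter windows came from RefSeq, where 9 of 9 genes matched.

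Counts were filtered with filterByExpr, scaled by TMM and compared in R 4.3.3 with the quasi-likelihood test of edgeR 4.0.16, in one model of all libraries with group as the only factor. P-values were adjusted by the Benjamini-Hochberg method. The procedure was also run on counts simulated from its own fitted means and spreads. Such counts meet its assumptions, so that run cannot show whether 2 libraries per group suffice. DESeq2 1.42.0, other scalings, filters and thresholds, a replicate block and leaving out each library were alternatives. All 9 genes and all further family genes were named, and of each other list the 3 genes with the smallest adjusted p in each comparison. Other genes of those lists, such as Casp1, Nlrp3, Ccl3 and Ccl4, were added after their values were seen, as were the genes called beside them. The members and lists were chosen with earlier results of these data known. Early granule gene Azu1 was not matched. Replicates of a group differed by more than counting noise, by a chi-square over its degrees of freedom of 10.1 (naive), 8.83 (1 week) and 11.8 (3 weeks).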

Additional observations from a re-analysis of the deposited data

Results flagged for a closer look

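The change from naive mice differed between 1 and 3 weeks for 4 of the 8 tested genes (50%, beside 22.5% of all tested genes). The test was that of edgeR for three-week against one-week LL2 mice, in which the naive libraries cancel. The change at 3 weeks minus that at 1 week was -1.31 on the log2 scale for Il1rn (adjusted p = 6.83e-06), 1.46 for Il1r2 (adjusted p = 6.85e-05), 2.03 for Il1rap (adjusted p = 5.89e-05) and 0.70 for Il18rap (adjusted p = 0.000632). Il1rn was lower at both stages, while the Il1r2 and Il18rap values were below naive in both one-week and above naive in both three-week libraries.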

How the results depend on the processing

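Under every alternative but the 5-fold threshold Il1rn kept its call in each comparison, as did Il1r2 and Il1rap at 3 weeks against both other groups and Il18rap between the stages. The number of the 8 genes called was 2, 4 and 4 at 1 week, 3 weeks and between the stages. Of all tested genes 7.99%, 21.4% and 22.5% were called. With the added threshold of over 5-fold the number of the 8 genes called was 0 in each, since none of their edgeR folds was that large. With library size alone it was 1 at 1 week. Leaving out 1 library gave 1 to 3, 3 to 4 and 4 to 5. With the replicate number as a block the counts were again 2, 4 and 4. The deviations of same-numbered libraries from their group means correlated by 0.010 to 0.038 over all tested genes. Such a correlation cannot exclude shared handling that moved only some genes. Directions turned only for values that were not called. Leaving out 1 library moved Il1rap at 1 week from -0.12 (without naive replicate 1, and -0.12 without one-week replicate 1) to 0.23, Il1rl1 at 1 week from -0.069 (without naive replicate 2, and -0.067 without one-week replicate 2) to 0.14, Il1a at 3 weeks from -0.058 (without three-week replicate 1, and -0.050 without naive replicate 1) to 0.68, Il1b at 3 weeks from -0.82 to 0.29 (0.050 without naive replicate 2), Il1b between the stages from -0.47 to 0.64, and Il18 between the stages from -0.50 to 0.085 (without three-week replicate 2). With library size alone Il1b between the stages was -0.018. Among these, only the -0.82 and the 0.64 of Il1b passed the test. Their cause was not tested.

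Over all genes, library size alone moved the median log2 fold change to -0.11 at 3 weeks and -0.22 between the stages. It called 890 higher and 1675 lower at 3 weeks (1471 and 1155 with TMM), 856 and 2136 between the stages (1586 and 1173), and 575 and 263 at 1 week (518 and 461). At 1 week DESeq2 called 362 higher and 501 lower, and the fit with no filter 838 and 699. Without naive replicate 1, 84 were higher and 63 lower at 1 week, and 729 and 633 at 3 weeks. Without one-week replicate 1 there were 228 and 115 at 1 week and 908 and 786 between the stages, and without one-week replicate 2, 173 and 104, and 853 and 649.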
